A study of Homo sapiens with 9 samples.

Results

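The translation initiation and elongation factors of U251 cells, an established human glioblastoma line, were examined after knockdown of PTBP1, an RNA-binding protein that represses exons used in neurons. Members were the genes whose symbols begin with EIF and a digit from 1 to 6, or with EEF and 1 or 2. These symbols filled 72 of the 22295 entries of the expression table. The 4 eIF2 kinases (EIF2AK1 to EIF2AK4) were left out and no pseudogene of these families was among the entries, which left 68 members. The data were 9 RNA-seq libraries, 3 per group. In sh-Luci-3d the cells carried a lentivirus with a control sh-RNA against luciferase and were harvested at 3 days post infection (dpi). In sh-Ptbp1-3d and sh-Ptbp1-7d they carried a lentivirus with an sh-RNA against PTBP1 and were harvested at 3 and 7 dpi. Per the study's methods, cells given either virus were moved to a neuronal induction medium with N2, B27, forskolin and dorsomorphin before the earlier harvest, so the 7 dpi cells had spent longer in it. No 7 dpi sh-Luci library was analysed here, so at 7 dpi the knockdown, the additional days and the time in the medium cannot be told apart. All libraries came from 1 cell line, and the methods chose 1 of the sh-RNAs they tested. The labels do not say whether the 3 libraries of a group came from separate cultures, so p-values measure only the spread between these libraries, which may be technical.

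Translation begins when eIF4E binds the cap of an mRNA and eIF4G joins it to the helicase eIF4A, which opens the leader. The small ribosomal subunit, held by eIF3 and loaded with initiator tRNA by eIF2, then scans to the start codon, and eIF5B joins the large subunit. During elongation eEF1A delivers aminoacyl-tRNAs, the eEF1B subunits recharge eEF1A with GTP, and eEF2 moves the ribosome along the mRNA. Many mRNAs of this apparatus, with those of the ribosomal proteins, begin with a C followed by a run of pyrimidines, the 5′ terminal oligopyrimidine (TOP) motif. mTORC1 controls the translation of TOP mRNAs, in part through LARP1, and in resting cells they are often stored.

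The start sequences are shown first because one comparison below rests on them. Each line gives 15 bases before and 15 bases from the transcription start annotated by RefSeq (GRCh38.p14), read 5′ to 3′ on the strand of the gene. Capitals mark a TOP start, taken here as a C at the start followed by at least 4 bases that are each C or T, and run to the end of that stretch or of the window. The search was made only at annotated starts and on the strand of the gene. The 54 members found in RefSeq had 71 annotated starts. Where a gene had several, the start with the longest stretch of this kind was kept. Of the members shown, this applies to EEF1B2, which has 2 starts. The first 9 members have a TOP start, and the last 4, described below for their level or their change, have none.
EEF1A1, chr6:73521018-73521047, minus strand: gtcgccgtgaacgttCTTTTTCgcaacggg
EEF1B2, chr2:206159880-206159909, plus strand: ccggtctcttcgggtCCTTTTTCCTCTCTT
EEF2, chr19:3985449-3985478, minus strand: gttgacgtcagcgttCTCTTCCgccgtcgt
EIF3D, chr22:36529152-36529181, minus strand: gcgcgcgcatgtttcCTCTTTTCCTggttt
EIF3F, chr11:7987322-7987351, plus strand: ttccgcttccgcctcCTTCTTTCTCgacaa
EIF3K, chr19:38619173-38619202, plus strand: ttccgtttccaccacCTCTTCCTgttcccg
EIF4B, chr12:53006441-53006470, plus strand: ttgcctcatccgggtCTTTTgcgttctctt
EIF2S3, chrX:24054941-24054970, plus strand: ggggtgatttccttcCTCTTTTggcaacat
EIF4A2, chr3:186783562-186783591, plus strand: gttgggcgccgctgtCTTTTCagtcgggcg
EEF1G, chr11:62573877-62573906, minus strand: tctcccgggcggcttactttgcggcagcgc
EIF3I, chr1:32222392-32222421, plus strand: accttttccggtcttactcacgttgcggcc
EIF4A1, chr17:7572810-7572839, plus strand: aggcgggcactccgccctagtttctaagga
EEF1AKMT4, chr3:184249657-184249686, plus strand: gaagggccggcggctctggctgcccggcgg
Of the 54 members with a start in the RefSeq table, 13 (24.1%) had a TOP start, against 5.14% of the 27305 genes in it and 4.07% of its 35116 starts. Among the cytosolic ribosomal proteins 47 of 63 had one. A base or more of difference between the annotated start and the start used in these cells would alter this reading, and the libraries do not show where transcription began.

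The authors deposited FPKM (fragments relative to transcript length and to all fragments mapped in a library), whose low values do not fall on whole-read steps, so the depth is unknown and no counting interval can be given. The FPKM of a library summed to between 367412 and 404922, and the 3 sums of sh-Ptbp1-7d were the lowest. Because FPKM is relative, fewer cells of a type and less RNA per cell cannot be told apart. PTBP1 stood at 111, 112 and 124 FPKM in sh-Luci-3d, 66.2, 64.4 and 60.97 in sh-Ptbp1-3d, and 49.7, 50.7 and 50.96 in sh-Ptbp1-7d, with no overlap between groups. Markers of the line were present in every library, and some of them moved. VIM, an intermediate filament gene, was at 4088 to 4488 FPKM at 3 dpi and 1094 to 1249 in sh-Ptbp1-7d (log2 fold change -1.91 against sh-Ptbp1-3d), and CD44 at 153 to 199 and 60.4 to 64.6 FPKM (-1.41), both called lower at an FDR of 0.01 by the limma test set out in the next paragraph, while NES, SOX2 and SOX9 were at 28.1 FPKM or more and not called in that comparison. The astrocyte gene GFAP was at 1.15 FPKM or less, AQP4 and OLIG2 were at 0.0566 or less, and the glial gene S100B rose from 0.115 ± 0.0577 FPKM in sh-Ptbp1-3d to 0.797 ± 0.135 in sh-Ptbp1-7d (SD, n = 3; limma adjusted p = 0.00202). Of the neuronal markers TUBB3 fell (-1.42) and MAP2 rose (0.94), SYT1 and SNAP25 were not called (-0.11 and 0.72), and RBFOX3 was at 0.191 FPKM or less. Against sh-Luci-3d, SOX2 and SNAP25 were called higher. Of the markers of other cells, PTPRC, HBB, CD3E and PECAM1 were at 0.0903 FPKM or less and VWF at 0.133 or less. CDH5 was at 0.211 to 0.591 FPKM at 3 dpi and 0.066 or less in sh-Ptbp1-7d, a called fall, and CD68 at 9.55 to 10.9 and 15.5 to 17.8 FPKM, a called rise. The part of these markers and of the FPKM sums in the results below was not tested. Among the libraries, sh-Luci-3d replicate 3 stood apart for several members, such as EIF3G, EIF4EBP1, EIF5A and EEF1D, and sh-Ptbp1-3d replicate 3 alone held the neuronal gene DCX above 1 FPKM. Counts are therefore also given without each of them.

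Between 3 and 7 dpi of knockdown, 26 factors fell and 5 rose among the 63 that could be tested. A member was tested where its mean over the 9 libraries was at least 0.1 FPKM, which 63 of 68 reached. The test was limma on log2(FPKM + 0.1), fitted over 15551 genes, and a call needed a Benjamini-Hochberg adjusted p (FDR) below 0.01 for comparisons of sh-Ptbp1-7d and below 0.05 for the comparison within 3 dpi. Against sh-Ptbp1-3d, sh-Ptbp1-7d had calls for 31 of 63 members (49.2%), against a background of 35.8% of all genes. Of these, 26 were lower (41.3% of members, background 15.5%) and 5 were higher (7.94%, background 20.3%). With a fold change above 2 as well, 3 were lower, EEF1G, EEF1A1 and EEF1AKMT1, and 2 were higher, EIF4A2 and EEF1AKMT4 (background 5.9% lower and 8.31% higher). Without sh-Ptbp1-3d replicate 3 the calls were 21 lower and 5 higher (background 13% and 15.1%), and without sh-Luci-3d replicate 3 they were 29 lower and 6 higher (background 19% and 24.4%). They fell to 17 lower without sh-Ptbp1-3d replicate 1 or without replicate 2 (background 11.8% and 11.7%). The groups did not overlap for 44 members (69.8%, background 62.3%). Of the 31 calls, 19 held under every alternative that kept the FDR as the only criterion and 12 were lost under at least 1 of these. Against sh-Luci-3d, 24 members were lower (38.1%, background 15%) and 5 higher (7.94%, background 20.6%), and 3 lower and 2 higher with a fold change above 2 as well (background 5.68% and 8.93%). The groups of that comparison did not overlap for 42 members (66.7%, background 55.9%). Both comparisons share the sh-Ptbp1-7d libraries, so one does not add independent evidence to the other.

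The 5 members that were not tested were EIF4E3, at 0.0217 to 0.125 FPKM, the entries EIF4E1B, EEF1AKMT4-ECE2 and EEF1E1-BLOC1S5, which are listed at 0 in every library, and EIF1AY, whose level is not given.

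**Figure D1:**
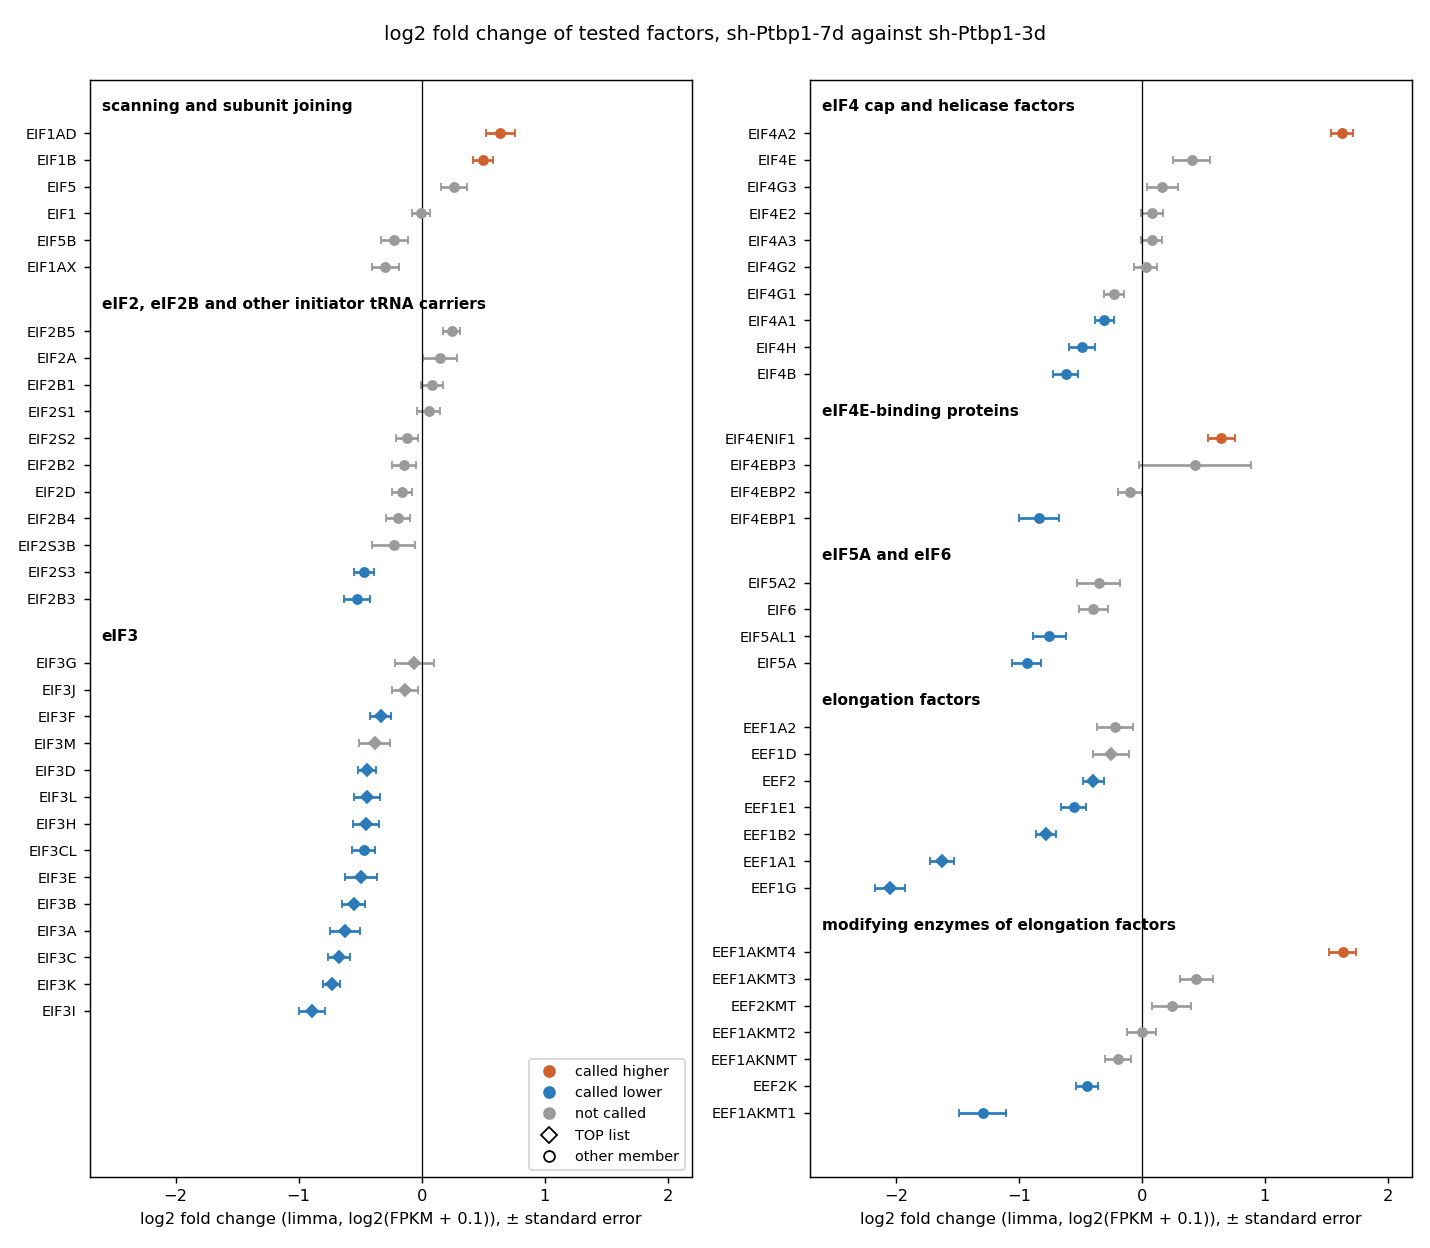
Horizontal axes give the limma log2 fold change from sh-Ptbp1-3d to sh-Ptbp1-7d with its standard error, for the 63 tested members, grouped by role. Blue marks the 26 members called lower, orange the 5 called higher and grey the 32 not called, and diamonds mark the 18 members of the TOP list.

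Within the cap-binding complex eIF4F, 1 helicase gene rose and its paralog fell. EIF4A2 (chr3:186783205-186789900), 1 of the 2 cytoplasmic eIF4A helicases, rose to 3.08 times its sh-Ptbp1-3d mean, while its paralog EIF4A1 (chr17:7572706-7579005) fell to 81.04%. EIF4A2 was at 146, 137 and 129 FPKM in sh-Luci-3d, 114, 137 and 129 in sh-Ptbp1-3d, and 381, 397 and 390.4 in sh-Ptbp1-7d. Every sh-Ptbp1-7d library exceeded every library of 3 dpi, by 1.63 on the log2 scale against sh-Ptbp1-3d (standard error 0.086, limma adjusted p = 1.44e-07) and by 1.51 against sh-Luci-3d (standard error 0.086, limma adjusted p = 2.43e-07). EIF4A1 was at 415, 418 and 403 FPKM in sh-Luci-3d, 414, 421 and 392 in sh-Ptbp1-3d, and 315, 328 and 351 in sh-Ptbp1-7d. The groups of 3 and 7 dpi did not overlap (log2 fold change -0.30, standard error 0.075, limma adjusted p = 0.00616), but the call was lost in 10 of 21 alternatives and quantile normalization turned the value to 0.195 (0.158 against sh-Luci-3d).

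The ratio of EIF4A2 to EIF4A1 in FPKM was 0.352, 0.328 and 0.319 in sh-Luci-3d and 0.275, 0.324 and 0.329 in sh-Ptbp1-3d, and it reached 1.21, 1.21 and 1.11 in sh-Ptbp1-7d. In FPKM, EIF4A1 was thus the more abundant of the pair in all 6 libraries of 3 dpi and the less abundant in all 3 of 7 dpi. Their summed level was 549.5 ± 15.5 FPKM in sh-Luci-3d, 535.6 ± 19.8 in sh-Ptbp1-3d and 721 ± 22.8 in sh-Ptbp1-7d (SD, n = 3). For a single value over 3 and 3 libraries, the exact permutation test cannot give a two-sided p below 0.1, which is what groups that do not overlap reach. EIF4A1 has 13 and EIF4A2 has 5 pseudogenes in GENCODE v29, and how reads shared with them were counted is not given in the sources used here.

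Among the other eIF4 factors, EIF4B, which stimulates eIF4A, was at 70.6, 68.3 and 71.4 FPKM in sh-Luci-3d, 73.6, 72.7 and 57.5 in sh-Ptbp1-3d, and 45.01, 47.1 and 39.98 in sh-Ptbp1-7d, and it fell without overlap (log2 fold change -0.62, standard error 0.1, limma adjusted p = 0.00058). EIF4H, a smaller relative of EIF4B, also fell, by 0.49 on the log2 scale (limma adjusted p = 0.00274), a call lost in 5 of 21 alternatives. Against sh-Luci-3d the EIF4H difference of -0.37 did not pass (limma adjusted p = 0.0122). The scaffold EIF4G1 was at 247, 244 and 265 FPKM in sh-Luci-3d, 264, 260.5 and 243 in sh-Ptbp1-3d, and 228, 232 and 198 in sh-Ptbp1-7d, a difference that did not pass (log2 fold change -0.23, standard error 0.084, limma adjusted p = 0.0432). EIF4G2, a scaffold that lacks the eIF4E site, had a value of 0.031 (95% interval -0.18 to 0.24) and EIF4G3 of 0.17. The cap-binding protein EIF4E was at 19.2, 21.5 and 17.9 FPKM in sh-Luci-3d, 19.7, 16.1 and 23.4 in sh-Ptbp1-3d, and 22.8, 24.6 and 30.7 in sh-Ptbp1-7d. Its sh-Ptbp1-7d libraries overlapped those of sh-Ptbp1-3d and the difference did not pass (log2 fold change 0.40, standard error 0.15, limma adjusted p = 0.0411). EIF4E2 and EIF4A3, the eIF4A relative of the exon junction complex, had values of 0.081 and 0.08 with no call. In all, 1 of the 10 tested eIF4 factors rose and 3 fell (40% called, near the 35.8% of all genes), with a median log2 fold change of 0.056, where the median of all genes was 0.092.

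**Figure D2:**
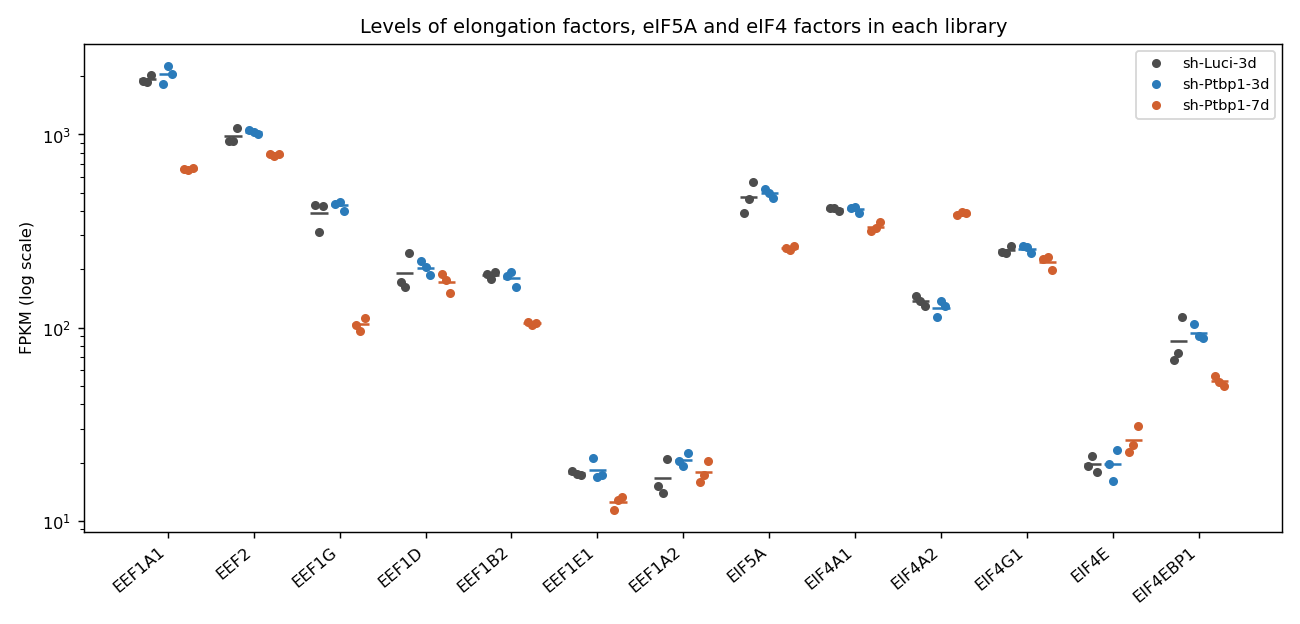
FPKM on a log axis for 13 factors in each of the 9 libraries, with dots for libraries and bars for group means (n = 3). EEF1A1, EEF1G, EEF1B2 and EIF5A lie lower in all 3 sh-Ptbp1-7d libraries, EIF4A2 lies higher in all 3, and EEF1A2 and EEF1D overlap between groups.

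Proteins that bind eIF4E went both ways. EIF4EBP1 encodes 4E-BP1, which blocks the docking of eIF4G until mTORC1 phosphorylates it. It was at 67.5, 73.98 and 113 FPKM in sh-Luci-3d, 104, 90.2 and 88.1 in sh-Ptbp1-3d, and 55.8, 52.1 and 49.96 in sh-Ptbp1-7d. All sh-Ptbp1-7d libraries were below all libraries of 3 dpi, and the value stood at 55.9% of the sh-Ptbp1-3d mean (log2 fold change -0.84, standard error 0.16, limma adjusted p = 0.00154). EIF4ENIF1 encodes 4E-T, which carries eIF4E to the nucleus and to P-bodies. It was at 6.08, 5.99 and 4.97 FPKM in sh-Luci-3d, 5.28, 5.20 and 4.84 in sh-Ptbp1-3d, and 8.58, 7.96 and 7.63 in sh-Ptbp1-7d, and it rose without overlap (log2 fold change 0.65, standard error 0.11, limma adjusted p = 0.000571). EIF4EBP2, the paralog prominent in brain, was at 8.56 to 11.2 FPKM with a difference of -0.093 that did not pass (limma adjusted p = 0.45). EIF4EBP3 stayed at 0.775 FPKM or less in every library and its groups overlapped.

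Most genes of eIF3, the scaffold of the small subunit, fell, as 11 of its 14 tested entries were lower in sh-Ptbp1-7d than in sh-Ptbp1-3d (78.6%, against 15.5% of all genes) and none was higher. The median was -0.46. Against sh-Luci-3d it was -0.52, with 11 lower (78.6%, against 15% of all genes), where EIF3M was called and EIF3F was not. EIF3I, a WD-repeat subunit, had the largest fall and was at 167, 161 and 178 FPKM in sh-Luci-3d, 183, 172 and 156 in sh-Ptbp1-3d, and 107, 82.3 and 87.9 in sh-Ptbp1-7d (log2 fold change -0.89, standard error 0.1, limma adjusted p = 4.99e-05). EIF3K, a small subunit outside the naming rule that came next, was at 168, 169.9 and 184 FPKM in sh-Luci-3d, 169.8, 172 and 169 in sh-Ptbp1-3d, and 97.05, 107 and 104 in sh-Ptbp1-7d (log2 fold change -0.73, standard error 0.071, limma adjusted p = 1.18e-05). In neither did any sh-Ptbp1-7d library reach the lowest library of 3 dpi.

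The large core subunits EIF3A, EIF3B and EIF3C had values of -0.62, -0.55 and -0.67, all called. EIF3C and EIF3CL are near-identical copies, so their separate values (-0.47 for EIF3CL) depend on how shared reads were divided. EIF3E, a subunit that bridges to eIF4G, was at 69.3, 73.1 and 54.9 FPKM in sh-Luci-3d, 56.2, 58.6 and 59.5 in sh-Ptbp1-3d, and 34.1, 47.2 and 43.6 in sh-Ptbp1-7d and just passed (log2 fold change -0.49, standard error 0.13, limma adjusted p = 0.00981). That call was lost in 13 of 21 alternatives, as were those of EIF3F in 11 of 21, EIF3L in 10 of 21 and EIF3H in 7 of 21. The subunits not called against sh-Ptbp1-3d were EIF3M (-0.38), EIF3J (-0.14), which is loosely bound, and EIF3G (-0.06), which is needed for scanning. EIF3G was at 89.96, 88.99 and 145 FPKM in sh-Luci-3d, 122, 115 and 109 in sh-Ptbp1-3d, and 110.2, 112 and 109 in sh-Ptbp1-7d, and its highest value was that of the sh-Luci-3d library that stood apart.

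**Figure D3:**
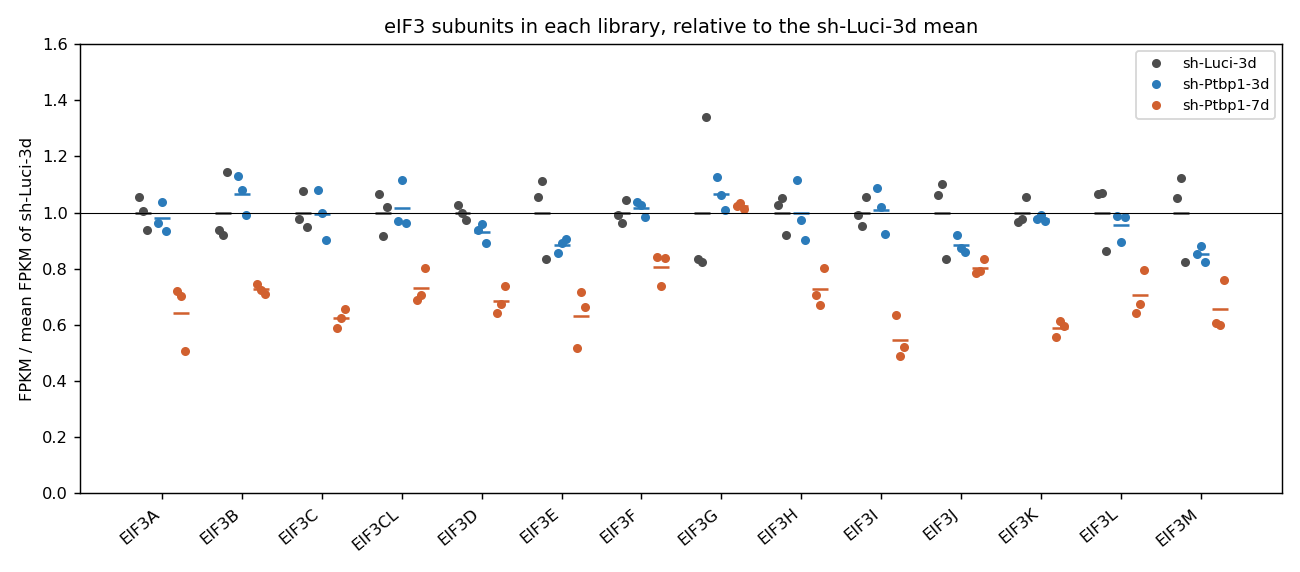
FPKM of the 14 eIF3 entries in each library divided by the sh-Luci-3d mean of the same entry, with bars for group means (n = 3). The 3 sh-Ptbp1-7d libraries lie below 1 for every entry except EIF3G, and sh-Luci-3d replicate 3 is the high point of EIF3G.

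Of 11 tested genes of eIF2, which carries the initiator tRNA, of eIF2B and of relatives, 2 were lower (18.2%, against 15.5% of all genes) and none higher, with a median of -0.14. EIF2S3, the gamma subunit of eIF2 that binds the tRNA and has a TOP start above, fell (log2 fold change -0.47, standard error 0.081, limma adjusted p = 0.000712), whereas EIF2S1 and EIF2S2, the alpha and beta subunits, had values of 0.057 and -0.12 with no call. Among the subunits of eIF2B, the exchange factor of eIF2, EIF2B3 was at 15.8, 16.2 and 14.3 FPKM in sh-Luci-3d, 16.6, 15.4 and 14.3 in sh-Ptbp1-3d, and 11.3, 9.27 and 11.6 in sh-Ptbp1-7d and fell without overlap (log2 fold change -0.52, standard error 0.11, limma adjusted p = 0.00205). EIF2B5, the catalytic subunit, was at 28.7, 28.5 and 30.2 FPKM in sh-Luci-3d, 29.6, 29.9 and 28.1 in sh-Ptbp1-3d, and 35.04, 35.04 and 33.7 in sh-Ptbp1-7d, higher in each sh-Ptbp1-7d library but short of the threshold (log2 fold change 0.24, standard error 0.068, limma adjusted p = 0.0123). EIF2B1, EIF2B2 and EIF2B4 lay between -0.19 and 0.082. EIF2S3B is a retrocopy of EIF2S3 and was at 2.07 to 4.27 FPKM.

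Of the genes grouped here under scanning and subunit joining, EIF1AD and EIF1B rose. EIF1AD, a relative of eIF1A, was at 4.54, 5.06 and 6.28 FPKM in sh-Luci-3d, 5.91, 5.84 and 5.89 in sh-Ptbp1-3d, and 9.26, 9.33 and 9.06 in sh-Ptbp1-7d and rose without overlap (log2 fold change 0.64, standard error 0.12, limma adjusted p = 0.00103). EIF1B, the paralog of the start codon factor EIF1 and outside the naming rule, rose too (log2 fold change 0.50, standard error 0.079, limma adjusted p = 0.000399). EIF1 itself was at 148 to 172 FPKM with a difference of -0.0069 (95% interval -0.17 to 0.16). EIF1AX was at 11.8, 11.6 and 9.11 FPKM in sh-Luci-3d, 12.2, 12.1 and 12.6 in sh-Ptbp1-3d, and 9.83, 10.5 and 9.71 in sh-Ptbp1-7d with no call (log2 fold change -0.29, standard error 0.11, limma adjusted p = 0.0397), and EIF5, which triggers GTP hydrolysis on eIF2, and EIF5B had values of 0.26 and -0.22, also not called. In all, 2 of the 6 tested were called (33.3%, near the 35.8% of all genes), both higher.

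EIF5A, the hypusine-bearing factor that relieves stalls at proline runs, was among the most abundant members and fell by nearly 1 on the log2 scale. It was at 393, 462 and 564 FPKM in sh-Luci-3d, 524, 497 and 466 in sh-Ptbp1-3d, and 259.6, 253 and 264 in sh-Ptbp1-7d. The lowest library of 3 dpi exceeded the highest of sh-Ptbp1-7d, which stood at 52.2% of the sh-Ptbp1-3d mean (log2 fold change -0.93, standard error 0.12, limma adjusted p = 8.04e-05). EIF5A2, the rarer isoform gene, was at 2.31 to 4.59 FPKM and did not pass (log2 fold change -0.35, standard error 0.17, limma adjusted p = 0.118). EIF5AL1, an EIF5A-like retrocopy at 1.64 to 3.36 FPKM, was called lower with -0.75, and reads shared with EIF5A could enter it. EIF6, which keeps free 60S subunits from joining, was at 75.8, 78.1 and 105 FPKM in sh-Luci-3d, 104, 101 and 95.5 in sh-Ptbp1-3d, and 79.5, 71.3 and 77.4 in sh-Ptbp1-7d. Its difference did not pass (log2 fold change -0.39, standard error 0.12, limma adjusted p = 0.016), and against sh-Luci-3d the groups overlapped.

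The 2 largest falls of all members were in elongation factors. EEF1G (chr11:62559601-62574086), a structural subunit of the eEF1B exchange complex, went to 24.2% of its sh-Ptbp1-3d mean, and EEF1A1 (chr6:73515750-73523797), the tRNA carrier, to 32.3%. EEF1G was at 433, 314 and 428 FPKM in sh-Luci-3d, 435, 449 and 403 in sh-Ptbp1-3d, and 103, 96.1 and 112 in sh-Ptbp1-7d. Every library of 7 dpi was below every library of 3 dpi, and sh-Luci-3d replicate 2 was the lowest of its group (log2 fold change -2.05, standard error 0.12, limma adjusted p = 3.77e-07; -1.90 against sh-Luci-3d, standard error 0.12, limma adjusted p = 6.13e-07). EEF1A1 was at 1893, 1863 and 2036 FPKM in sh-Luci-3d, 1832, 2258 and 2065 in sh-Ptbp1-3d, and 660.3, 658 and 667 in sh-Ptbp1-7d. The highest library of 7 dpi was at 667 FPKM and the lowest of 3 dpi at 1832 (log2 fold change -1.63, standard error 0.097, limma adjusted p = 3.67e-07; -1.54 against sh-Luci-3d, standard error 0.097, limma adjusted p = 4.97e-07). GENCODE v29 annotates 39 pseudogenes of EEF1A1 and 8 each of EEF1G, EEF1B2 and EEF1D.

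Of the remaining exchange subunits, EEF1B2, which carries the exchange activity, was at 188, 179 and 193 FPKM in sh-Luci-3d, 186, 194 and 162 in sh-Ptbp1-3d, and 107, 103 and 105 in sh-Ptbp1-7d and stood without overlap at 58.1% of the sh-Ptbp1-3d mean (log2 fold change -0.78, standard error 0.081, limma adjusted p = 1.92e-05). EEF1D, a further exchange subunit, was at 171, 162 and 244 FPKM in sh-Luci-3d, 219.8, 206 and 187 in sh-Ptbp1-3d, and 188, 176 and 152 in sh-Ptbp1-7d. Its groups overlapped (log2 fold change -0.25, standard error 0.15, limma adjusted p = 0.179). The ratio of EEF1G to EEF1D was 2.07 ± 0.405 in sh-Luci-3d, 2.1 ± 0.108 in sh-Ptbp1-3d and 0.613 ± 0.112 in sh-Ptbp1-7d (SD, n = 3), with no overlap between 3 and 7 dpi. EEF1E1, a component of the multisynthetase complex outside the naming rule, fell by 0.55 on the log2 scale (limma adjusted p = 0.00112).

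EEF2, the translocase, was at 922, 929 and 1082 FPKM in sh-Luci-3d, 1061, 1026 and 1010.1 in sh-Ptbp1-3d, and 788, 776 and 793 in sh-Ptbp1-7d. It was lower in each sh-Ptbp1-7d library (log2 fold change -0.39, standard error 0.088, limma adjusted p = 0.00348), a call lost in 8 of 21 alternatives. With quantile normalization the value was 0.052. EEF1A2, the paralog that takes the place of EEF1A1 in mature neurons and muscle, was at 15.2, 13.8 and 20.9 FPKM in sh-Luci-3d, 20.5, 19.1 and 22.5 in sh-Ptbp1-3d, and 15.9, 17.3 and 20.3 in sh-Ptbp1-7d. Its groups overlapped in each comparison, and the difference of -0.22 (95% interval -0.55 to 0.11) did not pass (limma adjusted p = 0.249). The ratio of EEF1A1 to EEF1A2 moved from 99.7 ± 15.9 in sh-Ptbp1-3d to 37.5 ± 4.31 in sh-Ptbp1-7d (SD, n = 3). EEF1A1 alone made up 26.9% ± 0.204 of the summed FPKM of the members in sh-Luci-3d, 27.6% ± 2.35 in sh-Ptbp1-3d and 13.7% ± 0.0493 in sh-Ptbp1-7d (SD, n = 3). The members together held 1.83% ± 0.0624, 1.87% ± 0.041 and 1.31% ± 0.0193 of the FPKM of a library in the same order.

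**Figure D4:**
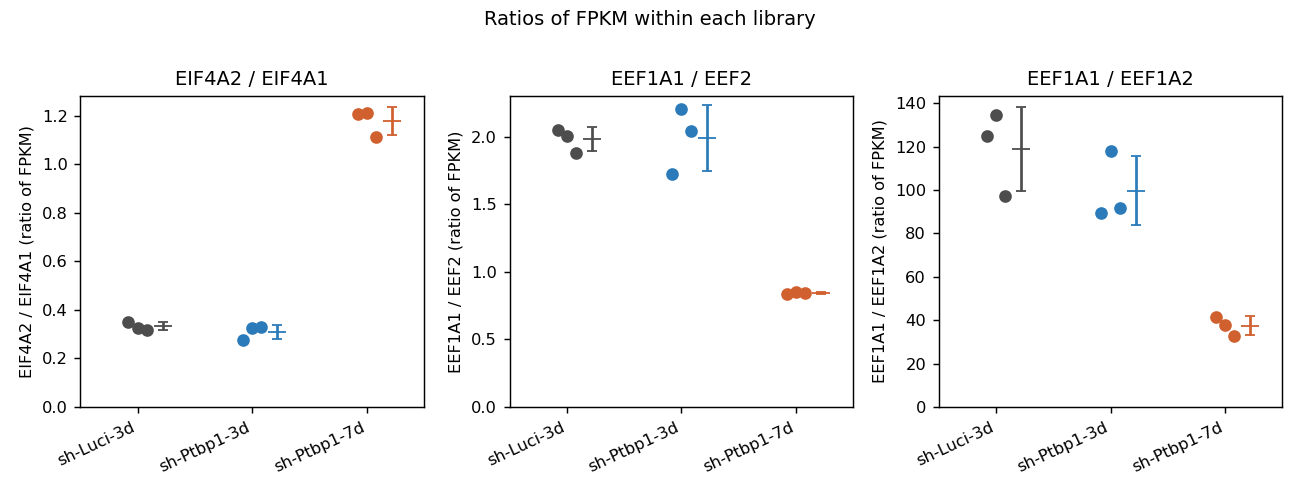
Ratios of FPKM within each library for EIF4A2 to EIF4A1, EEF1A1 to EEF2 and EEF1A1 to EEF1A2, on axes that start at 0, with dots for libraries and bars for the mean and SD (n = 3). EIF4A2 to EIF4A1 goes from 0.275 to 0.352 at 3 dpi to between 1.11 and 1.21 at 7 dpi, and EEF1A1 to EEF2 goes from between 1.73 and 2.2 to between 0.838 and 0.849.

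Enzymes that modify the elongation factors held 1 rise and 2 falls among 7 tested (42.9%, against 35.8% of all genes). EEF1AKMT4 (chr3:184249650-184259585), a lysine methyltransferase of eEF1A, was at 7.72, 8.22 and 9.58 FPKM in sh-Luci-3d, 8.17, 8.45 and 6.88 in sh-Ptbp1-3d, and 23.3, 24.8 and 25.1 in sh-Ptbp1-7d and rose without overlap (log2 fold change 1.63, standard error 0.11, limma adjusted p = 7.8e-07). It overlaps the readthrough entry EEF1AKMT4-ECE2, which is named for ECE2 as well. ECE2 is listed at 0.014 FPKM in 1 library and at 0 in the other 8, so the division of reads among these entries is uncertain. EEF1AKMT1, another such methyltransferase, was at 2.94, 3.09 and 2.25 FPKM in sh-Luci-3d, 2.85, 2.19 and 2.63 in sh-Ptbp1-3d, and 1.10, 0.741 and 1.14 in sh-Ptbp1-7d and fell without overlap (log2 fold change -1.29, standard error 0.19, limma adjusted p = 0.000278). EEF2K, the kinase that inhibits eEF2, was at 9.83, 9.29 and 9.62 FPKM in sh-Luci-3d, 11.5, 10.3 and 10.03 in sh-Ptbp1-3d, and 8.20, 7.66 and 7.48 in sh-Ptbp1-7d. It fell against sh-Ptbp1-3d (log2 fold change -0.44, standard error 0.089, limma adjusted p = 0.00185), whereas the difference of -0.30 against sh-Luci-3d did not pass (limma adjusted p = 0.0169). EEF1AKMT2, EEF1AKMT3, EEF1AKNMT and EEF2KMT were not called, at values from -0.19 to 0.44.

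Members of the TOP list were then set beside the others. The list held EEF1A1, EEF1B2, EEF1D, EEF1G, EEF2 and 13 eIF3 subunits, whether or not the annotated start of each is a TOP start. Of its 18 members 14 were lower in sh-Ptbp1-7d than in sh-Ptbp1-3d (77.8%, against 15.5% of all genes) and none was higher, with a median log2 fold change of -0.47. Of the 45 other tested members 12 were lower (26.7%) and 5 higher (11.1%, against 20.3% of all genes), with a median of -0.14, and the median of all genes tested was 0.092. Against sh-Luci-3d the medians were -0.57 for the list, 13 of which were lower (72.2%, against 15% of all genes), and -0.11 for the others, with 11 lower (24.4%) and 5 higher (11.1%, against 20.6% of all genes). A narrower list of 9, the same elongation factors with EIF3E, EIF3F, EIF3H and EIF4B, had 8 lower (88.9%) and none higher relative to sh-Ptbp1-3d, with a median of -0.49. Relative to sh-Luci-3d the narrower list had 6 lower (66.7%, against 15% of all genes) and none higher, with a median of -0.66. In both comparisons the 5 members called higher lay outside the list. Of the 79 cytosolic ribosomal proteins 66 were lower (83.5%) and none higher, with a median of -0.94. Each sh-Ptbp1-7d library showed the difference on its own: relative to the sh-Luci-3d mean the median of the TOP list was -0.63, -0.56 and -0.46, and that of the other members -0.1, -0.041 and -0.14. At 3 dpi of knockdown the list lay between -0.068 and 0.033. These are descriptions of the lists, with no test of one against the other.

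**Figure D5:**
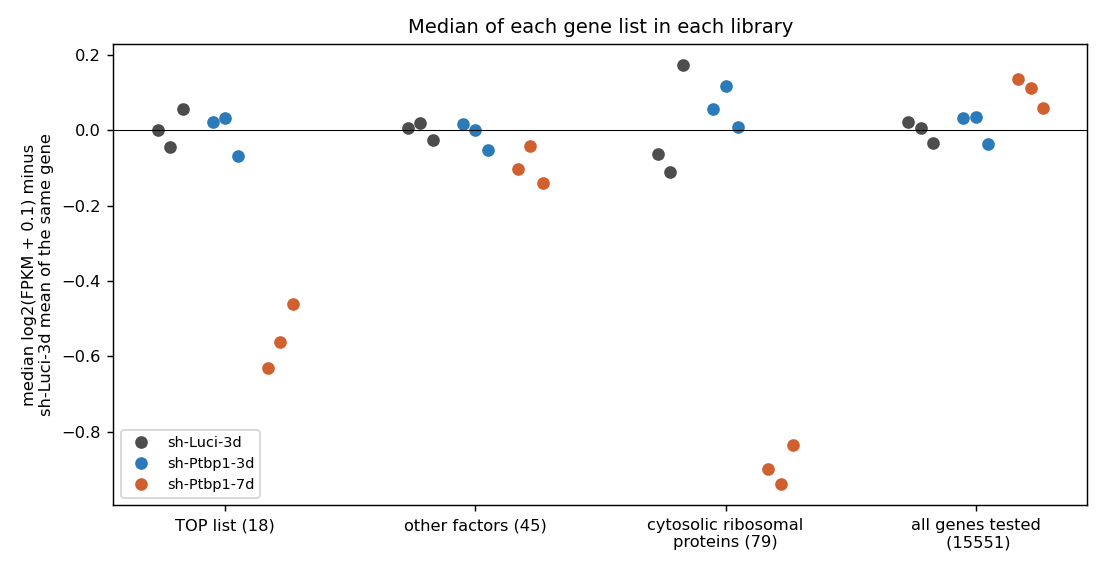
Each dot is 1 library and gives the median over a list of log2(FPKM + 0.1) minus the sh-Luci-3d mean of the same gene, for 18 TOP list members, 45 other members, 79 cytosolic ribosomal proteins and all 15551 genes tested. In sh-Ptbp1-7d the TOP list lies between -0.63 and -0.46 and the ribosomal proteins between -0.94 and -0.836, while all genes lie between 0.06 and 0.136.

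Sorting by the start sequences gave a smaller difference between medians, over fewer members. Members without a RefSeq start were left out, among them EEF1D, EIF3A, EIF3E, EIF3G, EIF3H and EIF3L of the TOP list. Of the 13 members with a TOP start 8 were lower (61.5%) and 1 higher (7.69%), with a median of -0.39. Of the 36 tested members with another start 11 were lower (30.6%) and 4 higher (11.1%), with a median of -0.14, where 15.5% of all genes were lower and 20.3% higher. EIF4A2, whose start CTTTTC is a TOP start, was the member that rose, and EEF1G and EIF3I, which fell most in their roles, have none at the annotated position. The level also varied with the change: over the 63 members the Spearman correlation of log2 level in sh-Luci-3d with log2 fold change was -0.42, where it was -0.24 over all genes. These genes share libraries and are not independent. GC content and transcript length gave -0.06 and -0.03 over the members.

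At 3 dpi of knockdown, none of the 63 members was called relative to sh-Luci-3d by limma at an FDR of 0.05 (background 0.0322%). At an unadjusted p under 0.05 the count was 2, or 3.17% of members, against 7.24% of all genes. Groups did not overlap for 4 members (6.35%, background 10.8%). The fitted values ran from -0.25 to 0.33 with a median of 0. Without sh-Luci-3d replicate 3, 5 members were called, 4 higher and 1 lower, against 6.34% of all genes (7.94% of members), and these were EIF3G, EIF3J, EIF4EBP1, EIF6 and EEF1A2, of which EIF3G and EIF3J lie outside the naming rule. PTBP1 was at 55.2% of its sh-Luci-3d mean in the same comparison.

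Genes that act with the factors were taken from fixed lists of 45 tested genes, of which 12 fell and 6 rose from 3 to 7 dpi of knockdown (40%, background 35.8%). The falls were 26.7% of these genes (background 15.5%) and the rises 13.3% (background 20.3%). PABPC1, the main poly(A)-binding protein and itself a TOP mRNA, was at 156, 158 and 129 FPKM in sh-Luci-3d, 130.3, 144 and 137 in sh-Ptbp1-3d, and 71.6, 76.7 and 82.4 in sh-Ptbp1-7d and fell without overlap (log2 fold change -0.83, standard error 0.095, limma adjusted p = 3.72e-05), as did PABPC4 (-0.49). They were 2 of the 5 tested genes of poly(A) binding (40%, against 15.5% of all genes). PAIP1 (0.19), PAIP2 (0.043) and PAIP2B (-0.67) were not called. Of the termination factors and ribosome rescue factors ETF1, GSPT1 and HBS1L were lower (60%, against 15.5% of all genes) and PELO and ABCE1 were not called. HBS1L was not called against sh-Luci-3d (limma adjusted p = 0.165), where its groups overlapped. Among 8 genes of mTORC1 and cap signalling 3 rose (37.5%, against 20.3% of all genes), RPTOR, RPS6KB1 and the TOP mRNA binder LARP1. Their values of 0.38, 0.39 and 0.35 passed narrowly (limma adjusted p = 0.00611, 0.00775 and 0.00932). The 3 that fell (37.5%, against 15.5% of all genes) were RPS6KB2 and the eIF4E kinases MKNK1 and MKNK2 (for MKNK2 log2 fold change -1.16, standard error 0.099, limma adjusted p = 4.79e-06). MTOR had a value of 0.047 with no call. Of the 4 eIF2 kinases EIF2AK3, the kinase of endoplasmic reticulum stress, was at 3.93, 4.16 and 2.76 FPKM in sh-Luci-3d, 3.83, 3.02 and 3.35 in sh-Ptbp1-3d, and 9.39, 9.50 and 8.21 in sh-Ptbp1-7d and rose (log2 fold change 1.39, standard error 0.16, limma adjusted p = 4.08e-05), as did the heme-sensing EIF2AK1 (0.35). EIF2AK2 and EIF2AK4 were not called, so the calls were 50% of these kinases, against 20.3% of all genes called higher. Against sh-Luci-3d EIF2AK1 was not called either (limma adjusted p = 0.0791), which left 25% (20.6% of all genes). The enzymes of hypusine formation, DHPS and DOHH, were not called, and of the 6 diphthamide enzymes, which modify eEF2, DPH7 rose (0.76). That call was 12.5% of these 8 enzymes, against 20.3% of all genes called higher. Among 9 factors of mitochondrial translation, which serve other ribosomes, TUFM and GFM1 were lower (-0.47 and -0.58) and none was higher. That was 22.2% lower, against 15.5% of all genes. Of the 6 scanning helpers DENR and PDCD4 were lower (33.3%, against 15.5% of all genes), and PDCD4 was not called against sh-Luci-3d (limma adjusted p = 0.0247).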

How the data were processed

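The authors extracted total RNA with TRIzol, sequenced it on Illumina HiSeq, aligned the reads (the submitters' processing notes name HISAT2 and GRCh38) and deposited FPKM per gene and library. The counting program is not given in the sources used here. The table holds 19932 gene symbols and 2363 assembled loci, and the coordinates of the assembled loci, deposited as another kind of value, were used only to set them beside GENCODE v29, where 49.6% of the 43315 exons equalled an annotated exon at both ends and none overlapped an exon of a member.

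The limma package 3.58.1 in R 4.3.3 was run on log2(FPKM + 0.1) over the 15551 genes averaging 0.1 FPKM or more, with all 9 libraries in 1 model of 3 groups, a trend in the empirical Bayes step and Benjamini-Hochberg adjustment. Fold changes on this scale understate changes of low genes. The script was tested on simulated data. Plots used Python 3.11.15 with matplotlib 3.10.9.

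The genes to name were 17 fixed genes and, in each role, the largest rise and fall among members with a mean of at least 1 FPKM, 27 in all. Other genes are named to account for the members or lists. The members, lists and thresholds were chosen with earlier results of these data known. The correction for GC content and length and the list made from start sequences were added after seeing the data. Alternatives were pseudocounts of 1 and 0.01, no filter, a minimum mean of 1 FPKM, values as TPM, median-ratio and quantile scaling, other model settings, a replicate block and leaving out each library.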

Additional observations from a re-analysis of the deposited data

How the results depend on the processing

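Depth is unknown, and 3 libraries a group limit every test. A fold change above 2 as well left 5 calls (2 higher, 3 lower) in each comparison of sh-Ptbp1-7d. Leaving out 1 library gave 22 to 35 calls (5 to 6 higher, 17 to 29 lower) against sh-Ptbp1-3d, lowest for lower calls without sh-Ptbp1-3d replicate 1 or 2, 20 to 37 (4 to 7 higher, 16 to 30 lower) against sh-Luci-3d, and 0 to 5 (0 to 4 higher, 0 to 1 lower) within 3 dpi. The 5 calls came without sh-Luci-3d replicate 3, where 6.34% of all genes were called. The share of all genes called moved with the library left out. Against sh-Ptbp1-3d it was 27.8% without sh-Ptbp1-3d replicate 1 or 2 and 43.4% without sh-Luci-3d replicate 3, beside 35.8% with all libraries. Against sh-Luci-3d it was 39.9% without sh-Luci-3d replicate 3, beside 35.6% with all libraries. The cause of these changes was not tested. For the library whose omission gave the fewest calls against sh-Luci-3d, the share of all genes called is not given here. That low end therefore does not show whether the members lost more calls than other genes.

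Scaling moved the median of all genes by up to 0.103 (TPM) and -0.114 (quantile). The TOP list median against sh-Ptbp1-3d was -0.373 with TPM, -0.561 with median-ratio scaling, -0.394 with the list from start sequences and -0.53 to -0.417 without 1 library. That of the other members was -0.044 with TPM, -0.23 with median-ratio scaling, -0.175 with quantile normalization, -0.107 with no filter, -0.177 with the GC and length correction, -0.192 with the narrow TOP list and -0.17 to -0.106 without 1 library. Against sh-Luci-3d the TOP list median was -0.495 with TPM, -0.674 with median-ratio scaling, -0.507 with the GC and length correction, -0.662 with the narrow list, -0.481 with the list from start sequences and -0.651 to -0.513 without 1 library. The other members gave -0.026 with TPM, -0.205 with median-ratio scaling, -0.03 with no filter, -0.19 with the narrow list, -0.153 with the list from start sequences and -0.121 to -0.085 without 1 library. Quantile normalization reversed EEF2 (0.052) and EIF4A1 (0.195) against sh-Ptbp1-3d and EIF4A1 (0.158) against sh-Luci-3d, and turned EEF2, not called against sh-Luci-3d, to 0.065. Of the members without a call, 10 against sh-Ptbp1-3d and 12 against sh-Luci-3d changed sign under at least 1 alternative.

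The replicate numbers did not pair the libraries: the correlation of deviations was -0.032 to 0.051 over 9 same-number pairs and -0.073 to 0.061 over 18 others. With the replicate block 26 members were called against sh-Ptbp1-3d (5 higher, 21 lower), 27 against sh-Luci-3d (5 higher, 22 lower) and 0 within 3 dpi. The share of all genes called with the block is not given here. These counts therefore do not show whether the members lost more calls than other genes.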
